A study of Mus musculus with 12 samples.

Results

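Regulated exocytosis machinery was examined in corticotrophs, the anterior pituitary cells that store adrenocorticotrophic hormone in dense-core granules, during and after dexamethasone (DEX) treatment. The members were the genes whose symbols belong to the synaptotagmin (Syt), synaptotagmin-like (Sytl), syntaxin (Stx), syntaxin binding protein (Stxbp), Vamp, Snap, complexin (Cplx), Unc13, Rab3, Rab27 and Rims families, with Nsf, Napa and Napb. There were 75 such genes among the 55304 in the count table. Of these, 73 were above 0.1 CPM (counts scaled to library size by the authors) in at least 3 libraries and entered the tests with 24736 genes in all; Syt8 and Cplx4 had 0 reads in all 12 libraries, which allows a level of up to 3 reads per library.

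Hormone release from these cells depends on granules that fuse with the plasma membrane when calcium rises. A granule is brought to the membrane by Rab3 and Rab27 GTPases and their effectors, is docked and primed by syntaxin binding, Munc13 and RIM proteins, and fuses when the SNARE proteins of the Vamp, syntaxin and SNAP-25 families zip together. Synaptotagmins bind the calcium that starts fusion, complexins clamp and assist the assembled SNAREs, and NSF with the alpha-SNAP protein Napa takes spent SNARE complexes apart.

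The cells were sorted by fluorescence from adult male mice of the genotype POMC-GFP, in which an eGFP transgene is driven by the Pomc promoter; posterior and intermediate lobes had been dissected away. There were 4 groups of 3 libraries, each library a pool of up to 3 pituitaries. Control mice drank plain water, the DEX 4 weeks group drank DEX at 2.5 µg/ml for 4 weeks, and the other groups were taken 1 week and 4 weeks after the same DEX course had ended. Sorting on a Pomc-driven reporter means that the gate itself depended on a promoter that DEX acts on, and in bulk libraries fewer cells of a type and less RNA per cell cannot be told apart.

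Libraries held 7719894 to 12848078 reads on genes. Pomc took 3.80 to 8.25% of reads in the control pools and 0.454 to 0.997% in the DEX pools, and from 4.33 to 20% at 1 week after DEX. Growth hormone (Gh) took 8.20 to 22.9% and prolactin (Prl) 3.50 to 10.3% of reads in every library, so the libraries also held RNA of somatotrophs and lactotrophs. The corticotroph transcription factor Tbx19 varied within groups, and each DEX pool lay above each control pool. It was 459, 229 and 218 CPM in control pools 1 to 3, 769, 498 and 1490.0 in the DEX pools, 282, 385 and 39.5 at 1 week, and 166, 94.4 and 188 at 4 weeks. Pool 3 at 1 week was thus the lowest of the 12 for Tbx19, and results that turn on it are given without it below. Of the 3 listed intermediate lobe markers, Pax7 was at most 0.336 CPM, while Pcsk2 (38.3 to 130 CPM) and Drd2 (16.9 to 66.8 CPM) were present in every library. Which cells the Pcsk2 and Drd2 reads came from was not tested.

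The level of each member was first compared between genes as CPM per kb of exon, averaged over the 12 libraries. Syt4, a synaptotagmin of dense-core granules that does not respond to calcium in the usual way, had the highest level of the members at 122 ± 26.7 per kb (SD, n = 12). Rab3b, a granule GTPase, followed at 79.3 ± 21.7 per kb. Napa was at 74.1 ± 12.2 per kb and Vamp2, the granule SNARE, at 73.9 ± 14.1 per kb. Snap25, the plasma membrane SNARE that pairs with Vamp2, was at 55.5 ± 14.2 per kb. These spreads overlapped from Rab3b to Snap25. They mix the groups, and the genes share the same 12 libraries, so the overlap does not settle the order of those neighbours within libraries, which was not tested. Vamp8 (52.8 ± 14.0 per kb), Sytl4 (45.4 ± 19.9), Rab27a (41.1 ± 10.8) and Syt13 (39.96 ± 22.1) came next.

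The plasma membrane syntaxins Stx4a and Stx1a had lower mean levels than Snap25 and Vamp2. Stx4a, which serves many plasma membrane fusion events, was at 10.7 ± 3.76 per kb and Stx1a, the syntaxin of neurons and endocrine cells, at 6.33 ± 1.5 per kb. Among the synaptotagmins that bind calcium, Syt5 was highest at 22.1 ± 6.56 per kb, then Syt1 at 14.0 ± 5.0 and Syt9 at 9.22 ± 3.30. Syt7, the slow, high-affinity calcium sensor, was at 3.50 ± 3.25 per kb. Cplx2 led the complexins at 9.88 ± 6.97 per kb and Cplx3 was at 3.03 ± 4.67, an SD above its mean. Among priming proteins Rims3, a short member of the RIM family, was highest at 8.64 ± 6.69 per kb, and Unc13a, which encodes Munc13-1, was at 3.66 ± 0.672. Stx7, an endosomal syntaxin, led the SNAREs of other compartments at 25.5 ± 6.65 per kb.

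**Figure D1:**
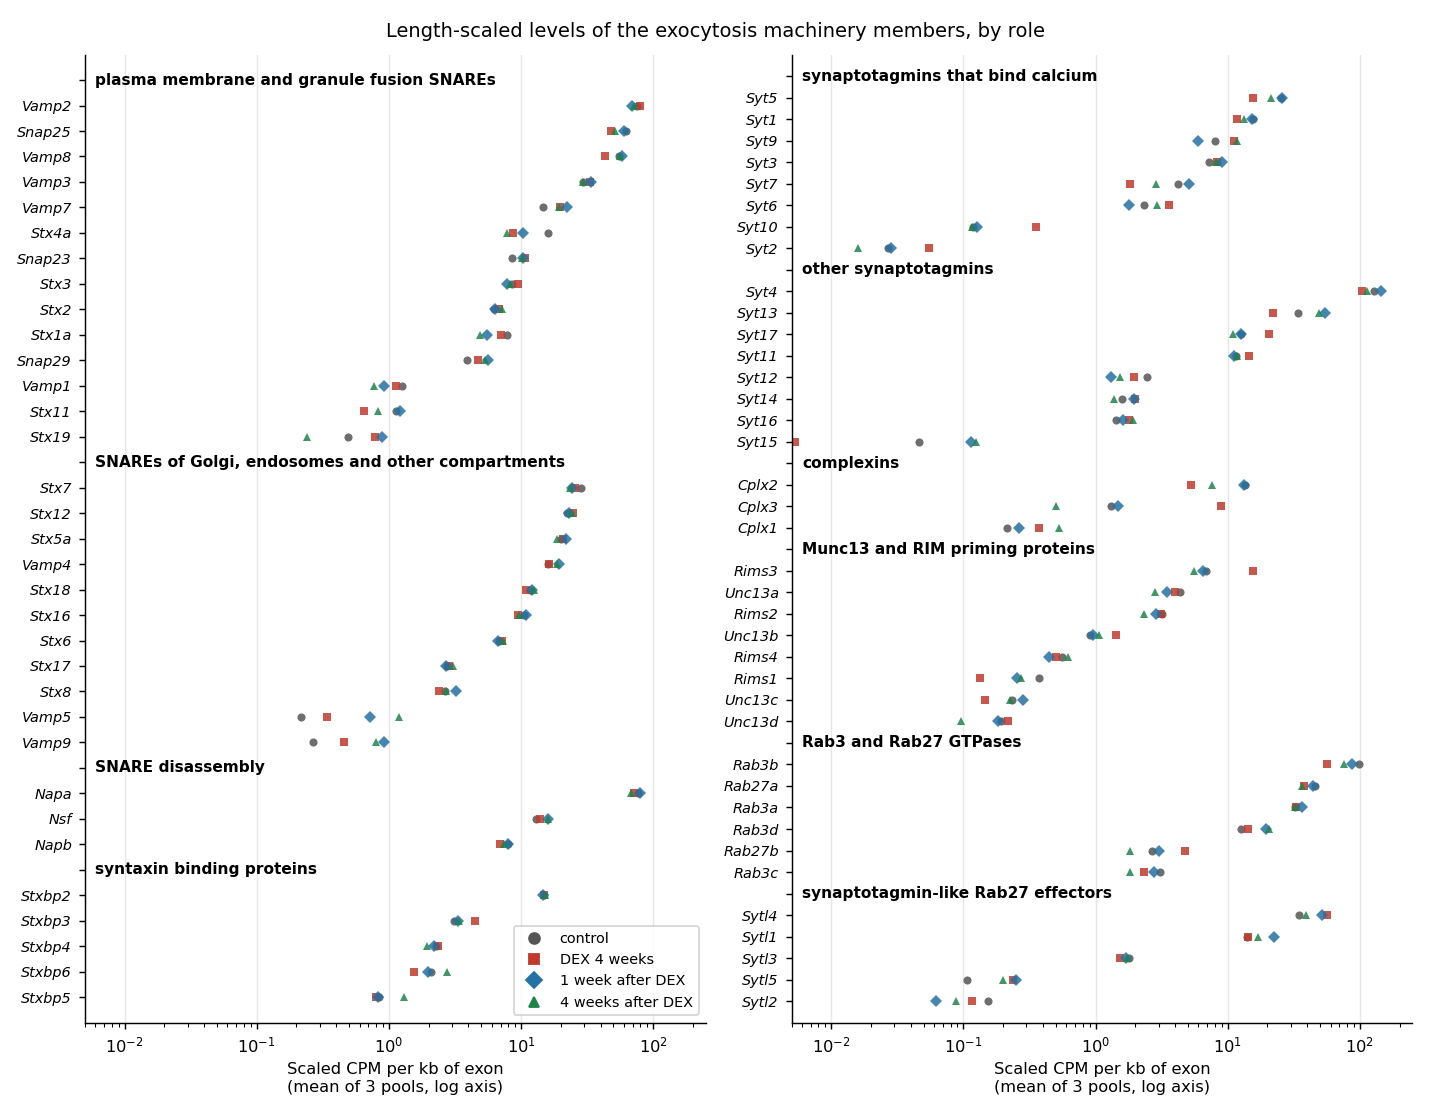
Mean level of the members reported here in the 4 groups (3 pools each), in CPM per kb of exon on a log axis, ordered by role and level; Syt8 and Cplx4, with 0 reads, are not drawn. Syt4, Rab3b, Napa, Vamp2 and Snap25 lie furthest to the right, and the 4 group means of most members lie close together, with Cplx3, Rims3 and Vamp5 among the exceptions.

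The first question was whether any member differed among the 4 groups. No member passed an adjusted p of 0.05 in limma's F test, against 78 of the 24736 genes tested (0.315%). At an unadjusted p under 0.05 there were 6 members, 1 of them a complexin, against 9.21% of all genes. On the recovered reads 1 member, Cplx3, passed in DESeq2, against 2.97% of all genes, and in edgeR's quasi-likelihood test, against 0.667%. The smallest adjusted p among the members was 0.205, for Cplx3, followed by Stx4a at 0.300.

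After 4 weeks of DEX the members as a whole lay close to control. Their median log2 fold change was 0.03, beside -0.02 for all genes tested, with 41 members above 0 and 32 below. None passed the adjusted threshold, against 0.121% of all genes, and DESeq2 called 1, against 0.768% of all genes. At an unadjusted p under 0.05 there were 7 members, against 6.80% of all genes. Of these, 2 were higher (3.60% of all genes) and 5 lower (3.20%). The DEX and control pools did not overlap for 9 members, against 12.8% of all genes. The 95% interval of the difference lay within 1 log2 unit on either side for 38 of the 73, so for the remaining members a difference of that size was not shut out at this depth and replication.

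Among the SNAREs that join the granule to the plasma membrane, the DEX pools of Snap25, Vamp2 and Stx1a overlapped the control pools. Snap25 was 555, 403 and 313 CPM in the control pools and 330.5, 374 and 274 in the DEX pools, which overlapped. Its log2 fold change was -0.35 ± 0.30 (SE), with a 95% interval from -1.0 to 0.30. Vamp2 was 358, 299 and 212 in control and 271, 284 and 348 after DEX. The log2 fold change of Vamp2 was 0.08, with an interval from -0.53 to 0.69. Stx1a was 22.7, 17.1 and 23.3 in control and 16.8, 18.8 and 20.5 after DEX, a log2 fold change of -0.16 (interval -0.72 to 0.41).

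Stx4a was lower after DEX in every pool. It was 39.6, 31.6 and 41.8 CPM in control, 19.3, 23.5 and 18.5 after DEX, 23.7, 19.2 and 30.7 at 1 week, and 24.5, 13.0 and 18.2 at 4 weeks. Each of the 9 DEX-exposed pools lay below each control pool. The log2 fold changes against control were -0.87 ± 0.28 at the end of DEX, -0.63 ± 0.28 at 1 week and -1.05 ± 0.28 at 4 weeks (SE). The unadjusted p-values were 0.00712, 0.0404 and 0.00194 and the adjusted ones 0.426, 1.00 and 0.518, so none passed. These 3 comparisons share the control pools and are not independent.

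Among Rab GTPases, Rab3b was 346, 303 and 388 CPM in control and 147, 177 and 269 after DEX, with no overlap. It was 358, 352 and 213 at 1 week and 245, 244 and 312 at 4 weeks, overlapping control at both times. The log2 fold change after DEX was -0.84 ± 0.29 (SE; unadjusted p = 0.00966, adjusted p = 0.463), at 1 week it was -0.20 (interval -0.81 to 0.41) and at 4 weeks -0.37 (interval -0.98 to 0.23). Rab3a, the Rab3 form best known from synapses, was 50.7, 62.3 and 102 in control and 51.0, 65.1 and 102 after DEX, a log2 fold change of 0.02 (interval -0.69 to 0.73). Rab27a, which recruits granule effectors, had a log2 fold change of -0.24 (interval -0.92 to 0.44). Rab27b, its paralog, was 45.5, 25.8 and 14.6 in control and 54.4, 34.5 and 62.1 after DEX, and 14.9, 19.5 and 24.5 at 4 weeks. The 4 weeks pools of Rab27b lay below the DEX pools, with a log2 difference of -1.34 ± 0.44 (SE; adjusted p = 0.208).

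After DEX the complexins held the member furthest from control. Cplx3, a complexin known from retinal ribbon synapses, was 5.35, 4.48 and 1.74 CPM in the control pools, which were 68, 38 and 16 reads. After DEX it was 17.9, 10.7 and 49.7, or 216, 131 and 443 reads, above every control pool. It was 4.37, 8.41 and 0.222 at 1 week, the last being 2 reads, and 1.11, 0.985 and 2.35 at 4 weeks. The log2 fold change after DEX was 2.57 ± 0.93 (SE), with an interval from 0.60 to 4.55, an unadjusted p of 0.0141 and an adjusted p of 0.538. Without DEX pool 3 it was 1.96 (adjusted p = 0.981 in limma). DESeq2 gave 2.73 with an adjusted p of 0.0482, the lowest over the alternatives tried that kept all libraries, where it reached 0.637. At 1 week the log2 fold change of Cplx3 against control was -0.63 in limma with all libraries. Cplx2, the main complexin of these libraries, was 30.1, 46.2 and 122 in control and 24.1, 36.1 and 17.4 after DEX. Its log2 fold change was -1.16 ± 0.49 (SE; unadjusted p = 0.0305, adjusted p = 0.685), and the pools overlapped. Cplx1 stayed at or under 1.57 in all libraries.

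Cplx3 followed the order of Tbx19 within each group. In the DEX pools both were highest in pool 3 and lowest in pool 2, in control both were highest in pool 1 and lowest in pool 3, and at 1 week both were highest in pool 2 and lowest in pool 3. Cplx2 went the other way in control pool 3 and 1 week pool 3, where it was 122 and 118 CPM, the highest of the 12. In a fit within groups against Tbx19, added after the values were seen, 8 members passed an adjusted p of 0.05 in limma, against 5.64% of all genes, and 0 members and 0 genes in all passed without 1 week pool 3. The slopes of 7 of the 8 kept their sign and a size of 0.39 or more on that scale without that pool, and that of Syt13 went from 0.49 to 0.07. Their adjusted p-values in limma were then 0.755 to 0.961. The 8 were picked in the fit with that pool and the other libraries are shared, so the kept signs are no independent support. Tbx19 is 1 of several listed corticotroph markers, and these did not share 1 order. In DEX pool 3 Pomc (4241 CPM) and Pcsk1 (202) were the lowest of the DEX pools, while Crhr1 (138) and Avpr1b (130) were the highest. In 1 week pool 3 each listed corticotroph marker was the lowest of its group. The part of the pools' corticotroph content in the differences of the members was not tested.

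**Figure D2:**
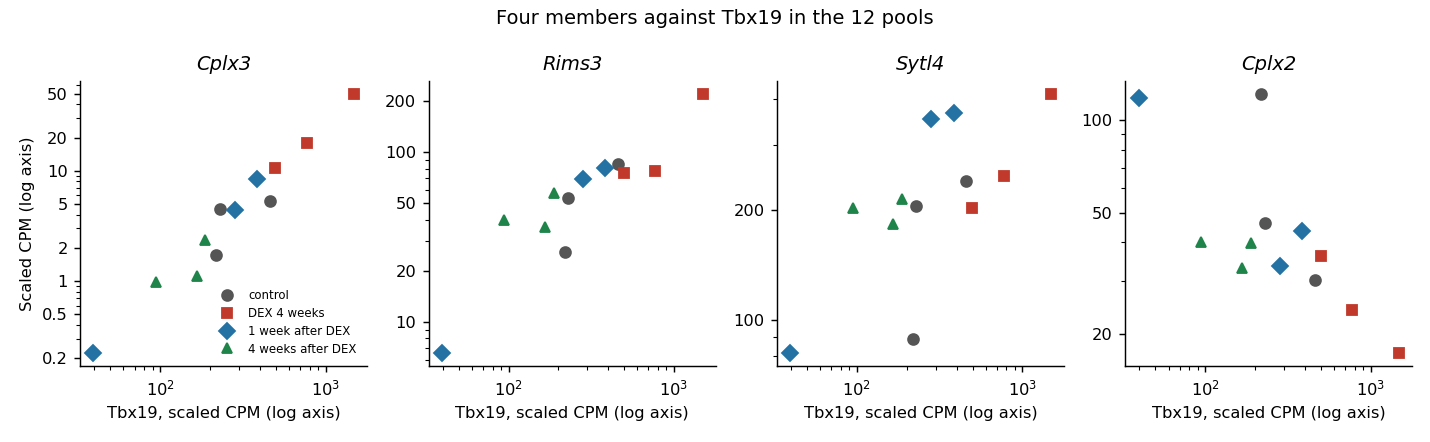
Cplx3, Rims3, Sytl4 and Cplx2 against Tbx19 in the 12 pools, both axes in CPM on log axes, with 1 symbol per pool coloured by group. Cplx3 runs from 0.222 in the pool with the lowest Tbx19 (39.5) to 49.7 in the pool with the highest (1490.0), while Cplx2 is lowest (17.4) where Tbx19 is highest.

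Since Cplx3 had the smallest adjusted p in the tests, and Rab3b and Stx4a the smallest unadjusted p after DEX, the 250 bases before their RefSeq starts (GRCm38.p6) were searched on both strands for the glucocorticoid response element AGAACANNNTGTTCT, its core AGAACA, the cyclic AMP response element TGACGTCA, the GC box GGGCGG and the T-box core AGGTGTGA. The AGAACA core is part of the full element. Capitals below mark matches to any of them, and each sequence is written on its gene's strand.
Cplx3, chr9:57606282-57606531, minus strand: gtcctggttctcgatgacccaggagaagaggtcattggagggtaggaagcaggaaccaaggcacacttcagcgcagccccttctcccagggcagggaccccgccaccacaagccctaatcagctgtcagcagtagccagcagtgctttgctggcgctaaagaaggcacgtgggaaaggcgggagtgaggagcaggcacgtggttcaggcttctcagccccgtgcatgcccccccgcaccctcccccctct
Rab3b, chr4:108878820-108879069, plus strand: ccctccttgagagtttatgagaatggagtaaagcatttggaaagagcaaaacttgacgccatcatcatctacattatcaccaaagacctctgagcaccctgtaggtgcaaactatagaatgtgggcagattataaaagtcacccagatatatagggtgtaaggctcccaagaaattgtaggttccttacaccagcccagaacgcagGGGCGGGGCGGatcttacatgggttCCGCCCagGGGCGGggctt
Stx4a, chr7:127841558-127841807, plus strand: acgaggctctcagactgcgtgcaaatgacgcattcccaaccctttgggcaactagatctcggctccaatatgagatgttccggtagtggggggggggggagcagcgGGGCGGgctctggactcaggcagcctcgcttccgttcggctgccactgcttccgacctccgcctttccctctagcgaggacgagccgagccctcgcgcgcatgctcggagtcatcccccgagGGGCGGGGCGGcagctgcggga

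Overlapping matches were counted separately. In these windows Rab3b held 4 GC boxes and Stx4a 3, in each a pair of which overlapped by 1 base, and Cplx3 held no match to any of the 5 motifs. RefSeq gave a start for 57 of the 75 members by symbol. The AGAACA core was present before 6 of these 57 members (10.5%), among them Rab3c, Stx2 and Stxbp2, and before 18.2% of all 27025 genes with a start. The full element was found before 0 of the 57 and before 0.0111% of all genes. The GC box was present before 37 of the 57 (64.9%) and 35.4% of all genes. The cyclic AMP response element and the T-box core each matched before 1 member (1.75%), Stxbp3 and Rab27a respectively, and before 1.77% and 1.30% of all genes. The 27025 genes were not limited to those tested here, while 73 of the 75 members were tested, so the sets are unlike. The shares among tested genes were not computed. A match is a description of letters and no match says only that these letters are not in the window.

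Calcium sensors and priming factors after DEX varied by gene. Syt5, a calcium-binding synaptotagmin, was 65.1, 54.3 and 62.3 CPM in control and 30.3, 31.1 and 49.1 after DEX, with no overlap. Its log2 fold change was -0.75 ± 0.28 (SE; unadjusted p = 0.0176, adjusted p = 0.573), and at 1 and 4 weeks it was -0.04 and -0.25. Syt4 was 587, 483 and 415 in control and 437, 424 and 344 after DEX, a log2 fold change of -0.30 (interval -0.90 to 0.30). Syt1 was 200.5, 120.04 and 64.8 in control and 120, 101 and 74.7 after DEX, so the spread within control was wider than the difference. Syt7 was 9.91, 16.4 and 68.6 in control and 16.0, 16.4 and 8.63 after DEX, and was 84.9 in 1 week pool 3, again the libraries in which Cplx2 was highest.

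Rims3 was 84.7, 53.5 and 25.7 CPM in control and 77.5, 75.3 and 220 after DEX, then 69.6, 80.6 and 6.56 at 1 week. It was highest in the DEX pool with the highest Tbx19 and lowest in the 1 week pool with the lowest. Its log2 fold change after DEX was 1.15 ± 0.73 (SE; adjusted p = 0.830). Sytl4, or granuphilin, the Rab27 effector that docks granules, was 239, 204 and 88.9 in control and 246, 202 and 413 after DEX, a log2 fold change of 0.75 (interval -0.31 to 1.81). Nsf was 116, 116 and 93.7 in control and 115, 118 and 115 after DEX, a log2 fold change of 0.10 (interval -0.38 to 0.58). Napa, its partner, had a log2 fold change of -0.10 (interval -0.64 to 0.44). For Nsf and Napa a log2 difference of 1 from control lay outside the intervals.

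**Figure D3:**
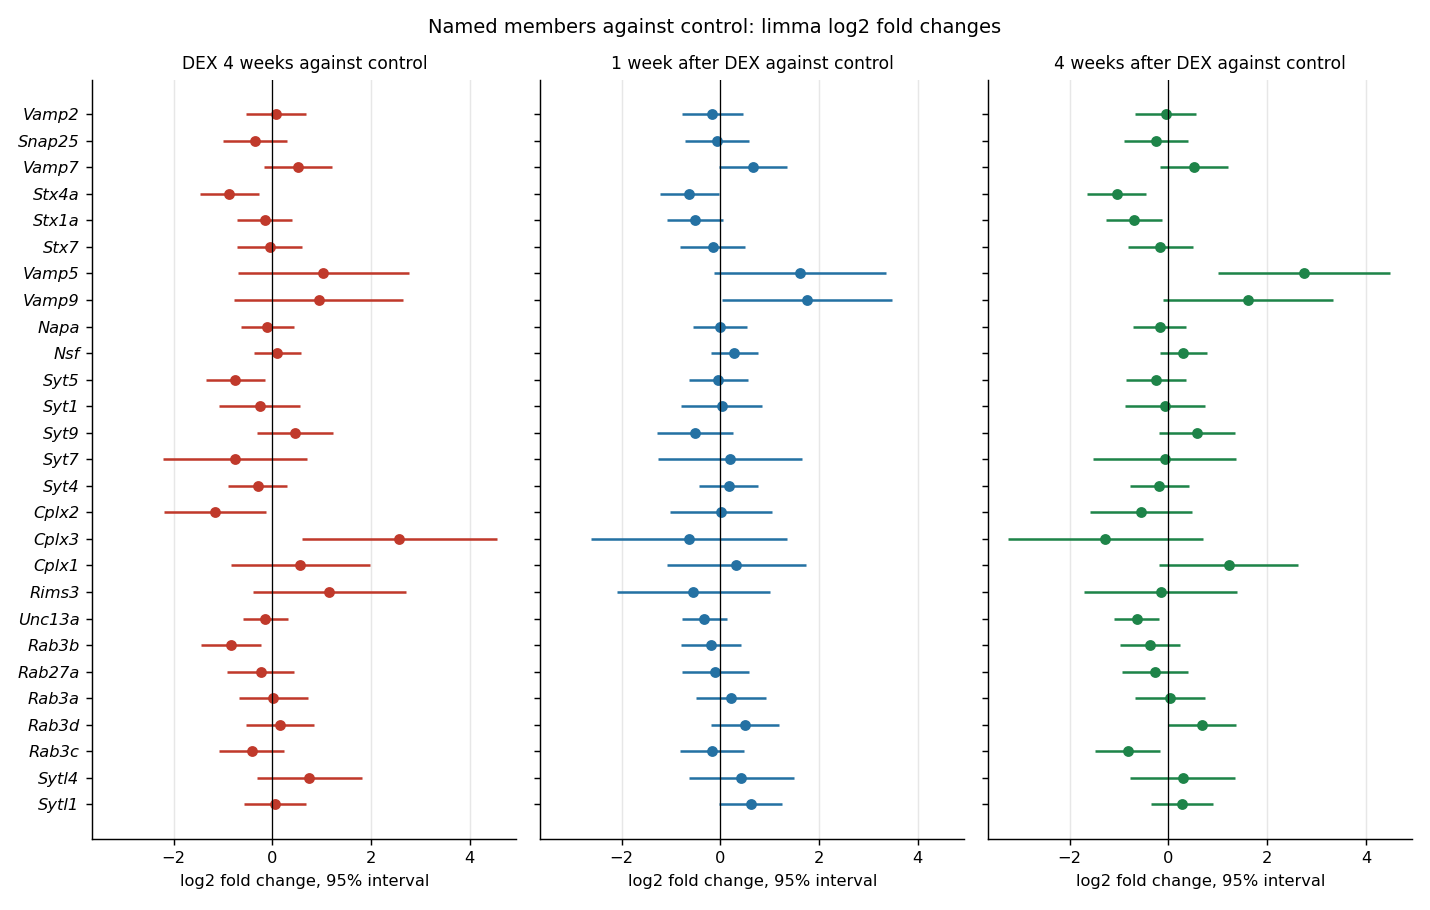
Log2 fold change against control (points) with 95% interval (lines) from limma for the named members reported here, in 3 panels for DEX 4 weeks, 1 week after DEX and 4 weeks after DEX, each with 3 pools against 3 control pools. Most intervals cross 0. Stx4a lies below 0 in the 3 panels, with -0.87, -0.63 and -1.05. Cplx3 lies above 0 in the first panel and at -0.63 in the second, where it would lie at 0.79 without 1 week pool 3. No point passed the adjusted threshold.

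At 1 week after DEX had ended, the members again centred on control, with a median log2 fold change of 0.00 beside 0.00 for all genes. No member passed the adjusted threshold, against 0 of all genes (0.0%). DESeq2 called no member, against 0.0323% of all genes, and edgeR none, against 0.00809%. At an unadjusted p under 0.05 there were 2 members, against 3.79% of all genes, 1 higher (1.81%) and 1 lower (1.98%). The higher one, Vamp9, was low in all libraries, at 0.629, 0.353 and 0 CPM in control and 2.0, 0.510 and 0.889 at 1 week, and its log2 fold change of 1.75 fell to 0.65 with a pseudocount of 1 and to 0.91 without control pool 3. The lower one was Stx4a. Vamp7, a SNARE of lysosome-related fusion, was 45.8, 46.5 and 19.4 in control and 68.6, 61.1 and 39.7 at 1 week, a log2 fold change of 0.67 (interval -0.02 to 1.36). Sytl1, a Rab27 effector, was 28.0, 34.4 and 43.4 in control and 35.2, 78.9 and 53.7 at 1 week, a log2 fold change of 0.61 (interval -0.02 to 1.24). The pools overlapped for Vamp7, Vamp9 and Sytl1.

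At 4 weeks after DEX the median log2 fold change of the members was -0.06, beside 0.00 for all genes. None passed the adjusted threshold, against 0 of all genes (0.0%). DESeq2 called no member, against 0.243% of all genes, and edgeR none, against 0 of all genes. At an unadjusted p under 0.05 there were 6 members, against 6.35% of all genes, 1 higher (3.43%) and 5 lower (2.92%). The 4 weeks and control pools did not overlap for 10 members, against 13.2% of all genes.

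Unc13a, whose protein primes granules for fusion, was 58.5, 50.5 and 56.8 CPM in control, 51.5, 51.3 and 47.3 after DEX, 40.1, 43.1 and 49.3 at 1 week and 41.6, 33.3 and 31.8 at 4 weeks. The 1 week and the 4 weeks pools lay below every control pool. The log2 fold change at 4 weeks was -0.64 ± 0.21 (SE; unadjusted p = 0.00871, adjusted p = 0.637), and at 1 week -0.33 ± 0.21. Stx1a was 14.0, 10.9 and 13.9 at 4 weeks against 22.7, 17.1 and 23.3 in control, again without overlap, a log2 fold change of -0.69 ± 0.27 (SE; adjusted p = 0.708). Rab3c was 38.5, 35.3 and 36.8 in control and 21.0, 13.4 and 31.8 at 4 weeks, a log2 fold change of -0.83 ± 0.31 (SE; adjusted p = 0.700). Rab3d, a Rab3 form of granules in secretory cells, was 61.1, 50.8 and 47.2 in control and 66.6, 87.6 and 104 at 4 weeks, a log2 fold change of 0.68 (interval -0.00 to 1.36).

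Vamp5, a SNARE first described in muscle, was the member with the widest difference from control at 4 weeks. It was 0.236, 0.118 and 1.41 CPM in control (3, 1 and 13 reads), 0.663, 1.31 and 0.785 after DEX, 0.380, 1.53 and 3.89 at 1 week and 2.12, 3.50 and 4.06 at 4 weeks (23, 32 and 45 reads). The 4 weeks pools lay above every control pool, with a log2 fold change of 2.74 ± 0.82 (SE; unadjusted p = 0.00417, adjusted p = 0.557), which was 1.47 with a pseudocount of 1 and 3.57 without control pool 3. The summed markers of 6 other cell types were also higher at 4 weeks. The summed level of the 5 listed endothelial markers was 6.53 to 61.9 in control, 2.82 to 7.85 after DEX, 24.1 to 155 at 1 week and 73.7 to 139 at 4 weeks, and none of the 5 was at 0 in all libraries. The 6 pericyte and fibroblast markers summed to 97.2 to 153 in control and 174 to 287 at 4 weeks. In the same order, the 5 stem and folliculostellate markers summed to 131 to 303 and 377 to 477, and the 3 thyrotroph markers to 127 to 282 and 462 to 728. The 3 gonadotroph markers summed to 551 to 632 and 645 to 968, and the 3 lactotroph markers to 31669 to 79071 and 86570.0 to 119965. None of these 6 sums overlapped between control and 4 weeks. At 4 weeks single genes held most of each of these sums, Prl of the lactotroph, Fshb of the gonadotroph and Tshb of the thyrotroph sum. There Cyp2f2 held most of the stem and folliculostellate sum, Col1a2 of the pericyte and fibroblast sum and Plvap of the endothelial sum. Agtr1a and Angpt1 of the lactotroph list, Lhb and Gnrhr of the gonadotroph list and Trhr of the thyrotroph list overlapped control. So did Sox2, S100b and Fxyd1 of the stem and folliculostellate list, Cdh5 of the endothelial list and Rgs5 of the pericyte list. The 6 macrophage markers summed to 49.3 to 124 in control, 17.6 to 27.2 after DEX and 89.2 to 199 at 4 weeks, which overlapped control. The sums of the somatotroph, melanotroph, neuron and posterior lobe, platelet and erythroid, and other leukocyte markers overlapped control at 4 weeks as well. The part of other cell types in the Vamp5 difference was not tested.

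**Figure D4:**
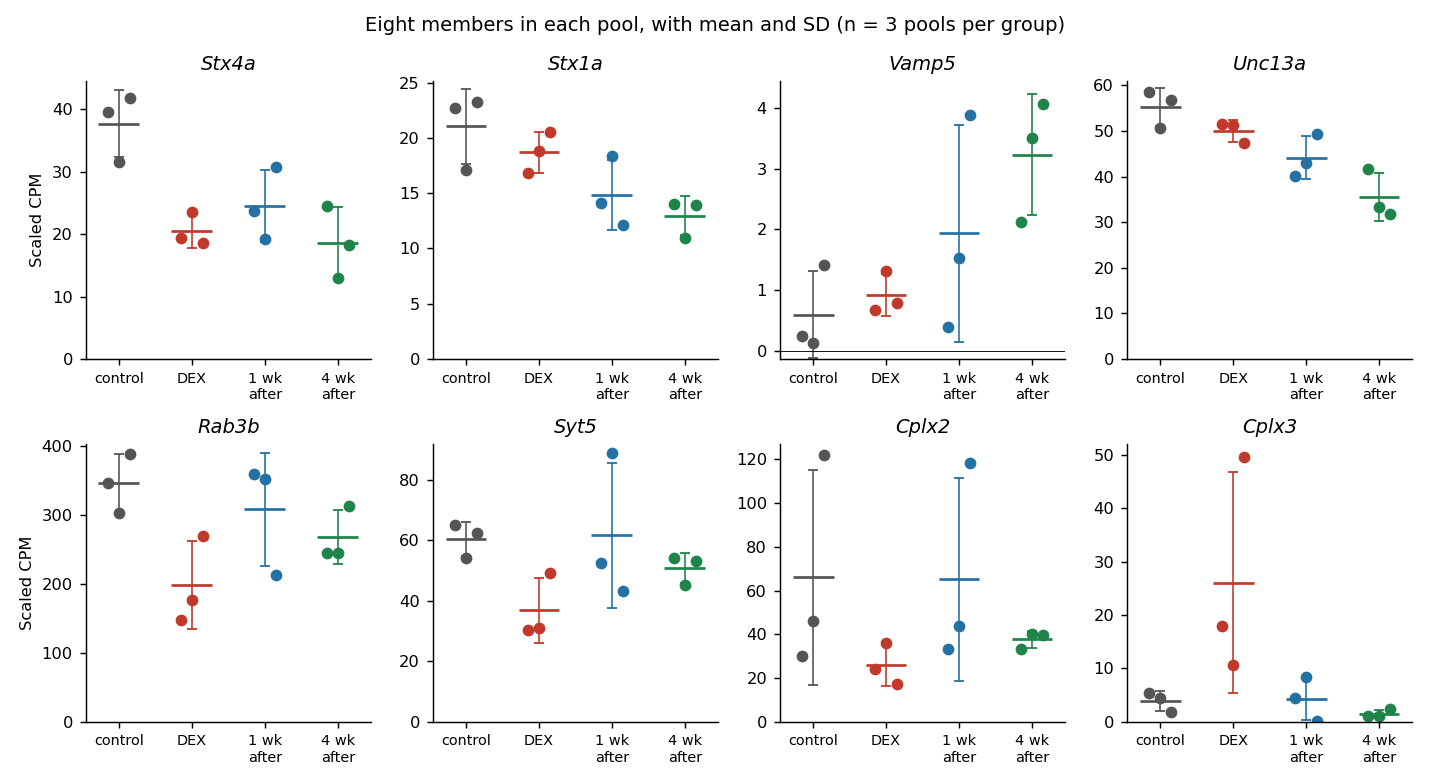
Stx4a, Stx1a, Vamp5, Unc13a, Rab3b, Syt5, Cplx2 and Cplx3 in CPM, with 1 point per pool, the mean as a bar and the SD as whiskers (n = 3 pools per group). Stx4a lies lower in the 9 DEX-exposed pools than in the control pools, Rab3b and Syt5 lie lower after DEX than in control, and Cplx3 is above control in the 3 DEX pools (10.7 to 49.7).

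The return from DEX was also read directly, against the DEX pools. At 1 week no member passed (0.433% of all genes did), with DESeq2 calling 1 (2.32% of all genes) and edgeR none (0.586%). There were 10 members at an unadjusted p under 0.05, against 10.8% of all genes. At 4 weeks no member passed in limma (0.873% of all genes did), while Cplx3 passed in DESeq2 (2.65% of all genes) and in edgeR (0.865%). There were 9 members at an unadjusted p under 0.05, against 9.94% of all genes. The DEX and 4 weeks pools did not overlap for 20 of the 73 members (27.4%), against 19.5% of all genes. At 4 weeks 6 of these were higher than after DEX (9.80% of all genes) and 14 lower (9.67%).

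Cplx3 was lower than in the DEX pools at both times. The log2 difference was -3.21 ± 0.93 at 1 week (SE; unadjusted p = 0.00345, adjusted p = 0.152) and -3.85 ± 0.93 at 4 weeks (SE; unadjusted p = 0.000818, adjusted p = 0.0685). Without 1 week pool 3, the pool in which Tbx19 was lowest, the difference at 1 week was -1.79 (adjusted p = 0.264), the adjusted p at 4 weeks was 0.00361 and that of the F test 0.0174. Without 1 week pool 2 the difference at 1 week was -4.15 and the adjusted p at 4 weeks 0.0344, and without DEX pool 3 the differences were -2.60 and -3.24. Over the 13 fits that left out libraries, the adjusted p at 4 weeks reached 0.306 and was under 0.05 in 3, and that of the F test reached 0.635 and was under 0.05 in 2. Over the other settings with all libraries the adjusted p at 4 weeks ranged from 6.0e-05 to 0.0919. Syt13, an atypical synaptotagmin, was 119, 187 and 75.6 in control, 80.6, 84.9 and 84.3 after DEX and 179, 194 and 185 at 4 weeks. The 4 weeks pools of Syt13 lay above the DEX pools, with a log2 difference of 1.16 ± 0.46 (SE; adjusted p = 0.364). At 1 week Syt13 was 195, 354 and 64.4, the low value being pool 3, and its log2 difference from DEX was 0.98, or 1.66 without that pool (adjusted p = 0.0326 in limma). Syt17, another synaptotagmin that does not bind calcium, was 85.5, 87.0 and 149 after DEX and 60.5, 53.3 and 57.6 at 4 weeks, a log2 difference of -0.86 ± 0.31 (SE; adjusted p = 0.288). Syt9, a calcium sensor of granules, was 53.8, 49.9 and 29.2 after DEX and 35.5, 12.1 and 24.0 at 1 week, a log2 difference of -0.97 ± 0.36 (SE; adjusted p = 0.305). Rab27b, Syt13 and Syt17 fell outside the rule for named genes and were chosen after their values were seen.

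How paralogs shared each family was then described per kb of exon. Snap25 held 71.3 to 85.2% of the Snap23, Snap25 and Snap29 total over the 12 libraries. Its share was 83.1% ± 2.51 in control and 75.5% ± 2.80 after DEX (SD, n = 3). Rab3b held 67.4% ± 3.10 of the Rab3 total in control, 53.1% ± 0.926 after DEX, 59.8% ± 7.47 at 1 week and 58.5% ± 4.47 at 4 weeks. Rab27a held 84.5 to 96.6% of the Rab27 pair. The Cplx3 share of the complexins was 12.7% ± 9.88 in control and 55.4% ± 24.7 after DEX, and it ranged from 0.309 to 81.6% over single pools. These shares use the values that the comparisons above already tested.

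The log2 ratios of 10 paralog pairs were tested among the 4 groups by exact permutation over the 15400 divisions of the 12 libraries into 4 sets of 3. None passed after Benjamini-Hochberg adjustment over the 10 pairs, the smallest adjusted p being 0.268. The smallest unadjusted values were 0.0506 for Rab27a over Rab27b and 0.0536 for Snap25 over Snap23. The log2 ratio of Rab27a to Rab27b was 2.73 ± 0.37 in control and 1.57 ± 0.65 after DEX, then 2.48 ± 0.58 and 2.88 ± 0.43 at 1 and 4 weeks (SD, n = 3). That of Snap25 to Snap23 was 3.52 ± 0.21 in control and 2.82 ± 0.12 after DEX, then 3.14 ± 0.33 and 2.99 ± 0.29. Against control alone the exact two-sided p after DEX was 0.10 for each, the smallest that 3 pools against 3 can give. The remaining 8 pairs, among them Vamp2 over Vamp3 and Syt1 over Syt7, had unadjusted p-values from 0.195 to 0.958.

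**Figure D5:**
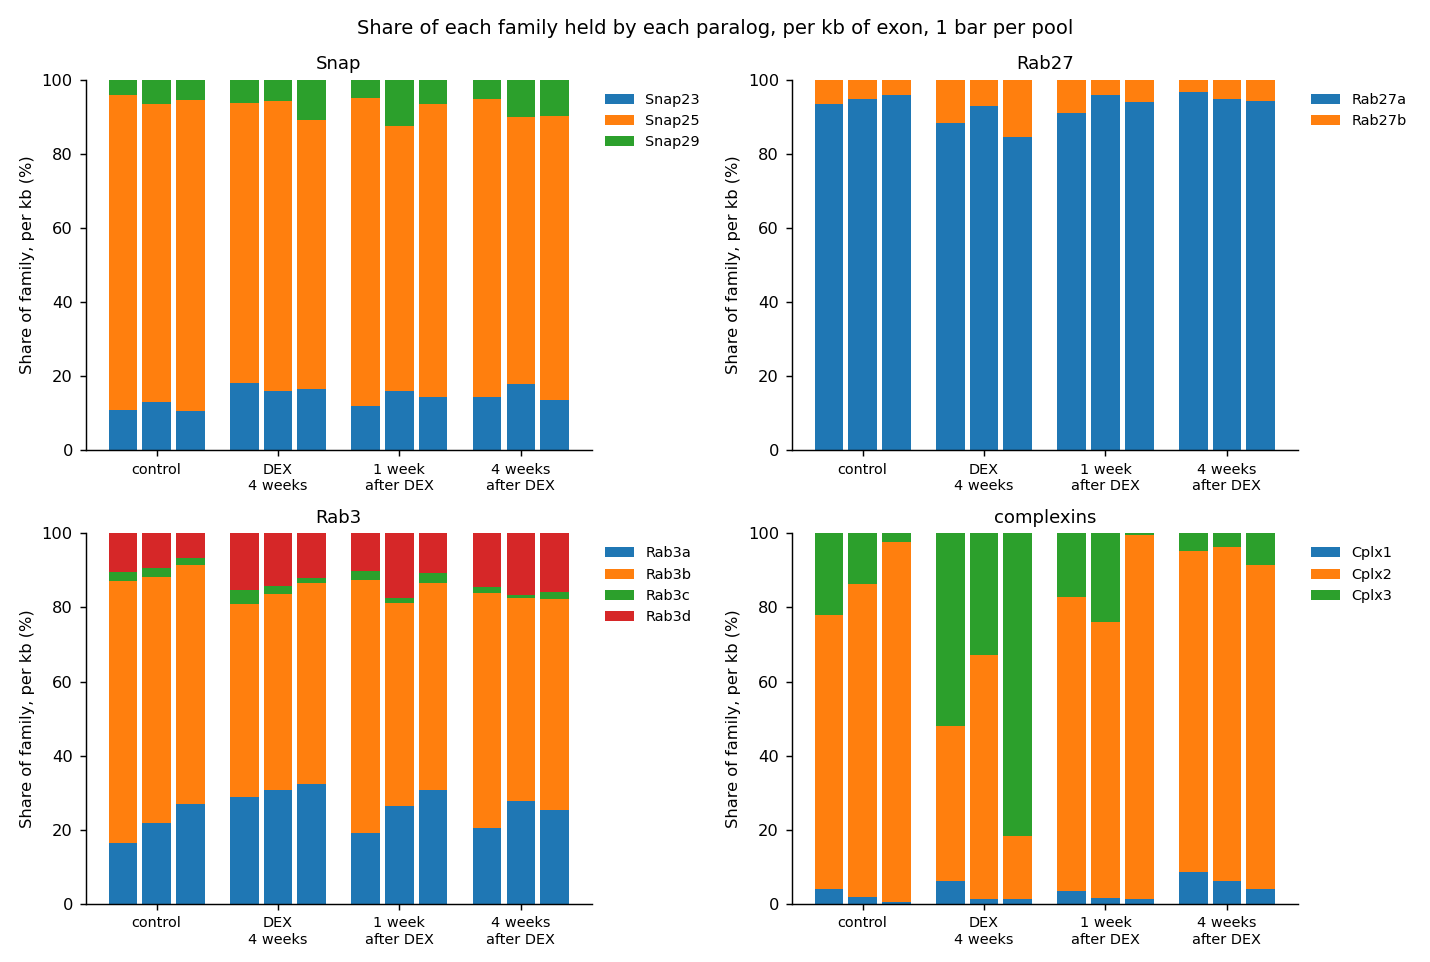
Percentage of each family's per-kb total held by each paralog, 1 stacked bar per pool in group order, for the Snap, Rab27, Rab3 and complexin families. The Rab3b segments are shorter in the DEX pools than in control, and the Cplx3 segment takes up to 81.6% of the complexins in a DEX pool.

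Other genes of the pathway were read from lists of 27 tethering, docking and priming cofactors, 9 exocyst subunits, 17 vesicle membrane proteins and 14 further SNAREs and Sec1 family proteins. All 67 were tested and none passed the adjusted threshold in any of the 6 comparisons. At an unadjusted p under 0.05 there were 2 after DEX, 1 at 1 week and 3 at 4 weeks, against 6.80%, 3.79% and 6.35% of all genes. In the return from DEX there were 5 at 1 week (7.46% of the 67, against 10.8% of all genes) and 7 at 4 weeks (10.4%, against 9.94%). The 9 exocyst subunits, which tether vesicles to the plasma membrane, lay below the DEX level at 1 week in 9 of 9 cases, as did 47.9% of all genes, with a median log2 difference of -0.37 and none under an unadjusted p of 0.05. Against control, 7 of the 9 were above it after DEX, 2 at 1 week and 6 at 4 weeks, where 47.8%, 50.2% and 49.7% of all genes were, and at 4 weeks 2 of the 9 were above the DEX level, against 50.1%.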

How the data were processed

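RNA-seq counts came from sorted Pomc-eGFP cells. Per the labels and the study's methods, the authors amplified RNA with a SMART-V4 kit, trimmed reads with Trim Galore 0.6.5, aligned them to GRCm38 (Ensembl release 98) with STAR 2.7.1a, counted them with featureCounts 2.0.0 at a mapping quality of 20 or more, and scaled them with edgeR. The deposited values are a normalised signal: CPM of the TMM-scaled library size. Every one of the 271881 values above 0 came out as a whole number of reads within 1e-06 reads, so read counts were recovered.

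Values were log2 transformed with a pseudocount of 0.1, so fold changes of low genes are understated. Genes above 0.1 in at least 3 libraries were fitted with limma 3.58.1 (trended variance) over all 12 libraries, with Benjamini-Hochberg adjustment over 24736 genes. The design had assumed plain CPM. edgeR 4.0.16 and DESeq2 1.42.0 were run on the recovered reads. Other alternatives were pseudocounts of 0.5 and 1, no filter or a filter at 1, median ratio scaling, array weights, a replicate block and leaving out each library. The fits were tested on simulated data.

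Exon lengths and coordinates came from GENCODE M21 (GRCm38). Reads per library set the precision: 1 read was worth 0.0787 to 0.127 CPM. Per the study, mice of a pool shared a cage, so p-values measure the spread between cages. Named genes were a core set, the 5 members of smallest p per comparison with control and in the F test, and the highest of each role per kb. Members and lists were chosen with earlier results of these data known. Some members are not reported here.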

Additional observations from a re-analysis of the deposited data

How the results depend on the processing

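No member passed in limma in any of the 6 comparisons, and the count stayed at 0 under no filter, a filter at 1 and median ratio scaling. In those 3 settings 0 to 1.21% of all genes passed. Pseudocounts of 0.5 and 1 each called 1 member at 4 weeks against DEX, against 0.914% and 0.889% of all genes. DESeq2 called 1 member in the F test, 1 in DEX against control, 1 in 1 week against DEX and 1 in 4 weeks against DEX, each Cplx3; edgeR called 1 (Cplx3) in the F test and 1 in 4 weeks against DEX. Array weights called 5 members in the F test (Cplx3, Rab3b, Stx4a, Syt13 and Vamp5; 4.32% of all genes), 2 at 4 weeks against control (Stx4a and Vamp5; 0.752%), 2 at 1 week against DEX (2.29%) and 4 at 4 weeks against DEX (5.26%); the cause was not tested. Leaving out libraries gave 0 to 2 members in the F test (0.0287 to 1.11% of all genes) and 0 to 1 at 1 week against DEX (0.0287 to 0.821%). It gave 0 to 3 at 4 weeks against DEX (0.0776 to 2.31%) and 0 to 11 in the Tbx19 fit (0 to 10.4%). It gave 0 in the comparisons with control, where 0 to 0.276% of all genes passed, and 0 in the paralog ratios. For the ratios, pseudocounts of 0.5 and 1 also gave 0. Leaving out control pool 3 and 1 week pool 3 together was added after seeing the data. It called 2 in the F test (1.11% of all genes), 1 at 1 week against DEX (0.820%) and 3 at 4 weeks against DEX (2.31%).

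With the replicate number as a block, 0 members passed in each of the 6 comparisons and 34 genes in all, against 30, passed after DEX. Of 18 same-numbered pairs of libraries, 7 had deviations that correlated over 0.1 (range -0.29 to 0.40), and 8 of 12 libraries correlated best with their own number. The labels do not say what a number shares. The 3 pairs of control with 1 week were each over 0.1 (0.20, 0.14 and 0.40), and no other 2 groups had this in all pairs. In a fit of those 6 pools alone with the replicate block, added after seeing the data, 0 members and 0 genes passed, with 2 members and 906 genes at an unadjusted p under 0.05, against 0 and 563 without the block.

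For the named members' fold changes against control, 1839 of 1845 recomputed values moved by less than the spread between pools, 3 became called (Cplx3 after DEX with DESeq2, and Stx4a at -1.09 and Vamp5 at 3.47 at 4 weeks with array weights) and 3 moved further (Vamp5 at 4 weeks and Vamp9 at 1 and 4 weeks with a pseudocount of 1). Of values that were not called, 91 lay on the other side of 0, and none of the called values did. Low counts limit Vamp5, Vamp9 and Cplx1.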

Other observations

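After the values had been seen, the members were fitted within groups against log2 Tbx19 in limma across all genes. In the 12 libraries 8 members passed an adjusted p of 0.05, against 5.64% of 24735 genes. Rims3 rose by 1.07 ± 0.12 log2 units per log2 unit of Tbx19 (SE; adjusted p = 0.000597), Cplx3 by 1.33 ± 0.18 and Sytl4 by 0.66 ± 0.11, while Syt17 and Syt13 had slopes of 0.36 and 0.49. Cplx2, Syt7 and Stxbp5, the tomosyn that binds SNAREs, had slopes of -0.57, -0.81 and -0.77. The calls rest on 1 library, 1 week pool 3. The 8 members were picked in the fit with that pool, so their slopes without it are no independent support. Without 1 week pool 3, 0 members and 0 of 23949 genes passed in limma, with 1534 genes at an unadjusted p under 0.05, and the slopes were 0.90 ± 0.23 for Rims3, 1.19 ± 0.32 for Cplx3, 0.55 ± 0.22 for Sytl4, -0.67 ± 0.26 for Cplx2, -0.72 ± 0.36 for Syt7, 0.39 ± 0.16 for Syt17, -1.02 ± 0.35 for Stxbp5 and 0.07 ± 0.23 for Syt13. Leaving out single libraries gave 0 to 11 members, the highest without 1 week pool 1, where 10.4% of all genes passed. There were 4 without control pool 1 (2.53% of all genes), 3 without DEX pool 3 (1.82%) and 5 without 1 week pool 2 (0.750%). The order of pools by Tbx19 was not chosen by the study, and other measures that differ between the pools were not tested.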
